A study of Homo sapiens with 12 samples.

Results

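The 10 genes described here, *AXIN2*, *RNF43*, *ZNRF3*, *NKD1*, *NKD2*, *DKK1*, *LEF1*, *TCF7*, *LGR4* and *LGR5*, are feedback regulators and transcriptional targets of Wnt signaling. They were chosen by name from knowledge of the pathway, with earlier results of these data known. All were found among the 58302 Ensembl gene identifiers of the count table, where each symbol matched 1 identifier. In Wnt signaling, a Wnt ligand binds a Frizzled receptor with an LRP co-receptor, β-catenin escapes degradation, and TCF and LEF proteins on the DNA then activate target genes. Several of those targets act back on the pathway. RNF43 and ZNRF3 remove Frizzled from the cell surface, R-spondins bound to LGR receptors block that removal, DKK1 blocks LRP from outside the cell, NKD proteins act on Dishevelled, and AXIN2 serves as scaffold for β-catenin degradation. In epithelia, BMP signaling is often found beside Wnt signaling, and whether either BMP or the loss of the ubiquitin ligase gene *MIB1* touched these Wnt genes is the question of the comparisons below.

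RNA was sequenced from 12 libraries of MIB1-iKO cells, 3 for each of 4 groups. The cells derive from NCIH838, a human lung cancer line, and carry a piggyBac construct from which doxycycline (Dox) switches on Cas9 next to a *MIB1* guide RNA. All groups spent 3 days in 50 nmol/L LDN, a BMP receptor inhibitor, with 0.5 μg/mL Dox (MIB1 KO) or no Dox (MIB1 WT), and all then received 10 ng/mL BMP4 for 24 hours, with LDN kept (BMP-off) or replaced by DMSO (BMP-on). Since all KO libraries and no WT library had Dox, MIB1 loss cannot be told apart from Dox or Cas9 cutting, and nothing in the sources says whether replicates were separate cultures, so that p values measure the spread between these libraries.

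Library totals lay between 19124010 and 29498000 counts. Levels are given as CPM, counts scaled to the library size and to 1000000 reads, and changes as log2 fold changes from 1 edgeR fit over all libraries, in which 17188 genes were tested. A gene counts as changed where its p, adjusted over all of these by the Benjamini-Hochberg method, did not exceed 0.05. *MIB1* itself fell in KO cells by 2.23 on the log2 scale with BMP-off and by 2.34 with BMP-on, and all 7 BMP target genes examined rose with BMP-on in WT and in KO cells, with median log2 fold changes of 1.29 and 1.39. Of 5 epithelial markers, 4 were expressed and *KRT19* had 12 counts in total, whereas of 5 lung lineage markers only *NAPSA* passed the filter on low counts, and *NKX2-1* had 1 count in total. The summed level of 5 markers of non-epithelial cells was 14.4 to 20.5 CPM in WT BMP-off, 28.6 to 30.6 CPM in WT BMP-on, 11.9 to 20.3 CPM in KO BMP-off and 33.9 to 41.7 CPM in KO BMP-on libraries. Nearly all of it was the collagen gene *COL1A1*, while the leukocyte marker *PTPRC* was at 0 counts in every library, and the part of these markers in the results below was not tested. Counts also moved with the GC content of transcripts, most in KO BMP-off replicates 2 and 3, where Spearman's rho across genes with the deviation from the group mean was -0.603 and 0.586.

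Of the 10 genes, 8 passed the filter on low counts. *LEF1*, a transcription factor that is itself a Wnt target in many cells, had 0 counts in all 12 libraries. *LGR5*, the R-spondin receptor known as a stem cell marker of the intestine, had 5 counts in total, spread over 4 libraries. A count of 0 allows up to 3 counts, or 0.103 to 0.157 CPM depending on the library, for counting error only.

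The 8 expressed genes differed widely in level. Per gene length, in the RPKM values of the authors, *LGR4* stood highest with a mean of 35.6 RPKM and a range of 26.1 to 44.4 over the 12 libraries. It ranked at the 93.6th percentile of genes with a mean RPKM above 0. *ZNRF3* (5.21 RPKM), *RNF43* (4.36 RPKM), *DKK1* (4.13 RPKM), *TCF7* (2.90 RPKM) and *NKD2* (2.46 RPKM) followed, each with a range that overlapped that of the next, so that neighbours in this order are not separated by the spread over libraries. The ranges of *ZNRF3* (4.62 to 5.62 RPKM) and *RNF43* (3.45 to 5.12 RPKM), however, lay wholly above those of *TCF7* (2.46 to 3.42 RPKM) and *NKD2* (1.52 to 3.12 RPKM). *AXIN2*, the gene most widely used as a readout of Wnt signaling, had a mean of only 0.306 RPKM (range 0.225 to 0.399) and lay at the 51.7th percentile. *NKD1* lay below it at 0.120 RPKM (range 0.0633 to 0.188). The ranges of *LGR4* and *ZNRF3*, of *NKD2* and *AXIN2*, and of *AXIN2* and *NKD1* did not overlap. In mean counts per library this is 4509 for *LGR4* but 49.6 for *NKD1* and 34.7 for *AXIN2*.

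**Figure D1:**
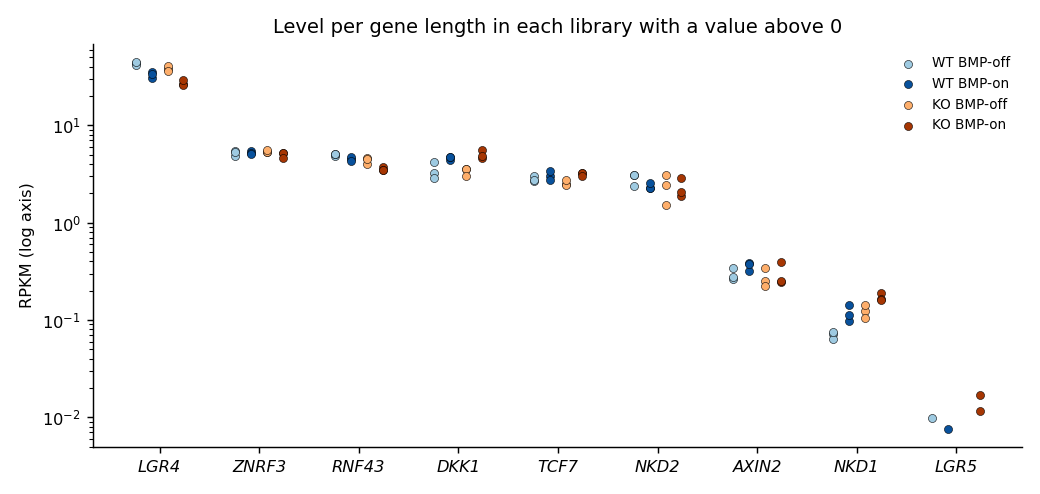
RPKM of each gene (log axis) in each of the 12 libraries, coloured by group, for libraries with a value above 0. *LGR4* is alone above 26 RPKM, 5 genes lie between 1.52 and 5.63 RPKM, each overlapping the next, *AXIN2* and *NKD1* lie below 0.4 RPKM, and *LGR5* has a value in 4 libraries only. *LEF1* is not drawn since it had no reads.

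The promoters of *LGR4*, *RNF43* and *DKK1* are printed because these genes had the smallest adjusted p values among the 10. They are RefSeq windows on GRCh38.p14, from 250 bases before to 50 bases after a gene start, each read 5′ to 3′ on the strand of the gene. Capitals mark matches to a TCF/LEF word, which is CTTTGAT or the same word ending in TT, AA or TA in place of AT. These words were searched on both strands, as was GGCGCC, a GC-rich word bound by SMAD1 and SMAD5, and no match of one word overlapped another.
LGR4 (chr11:27472741-27473040, minus strand): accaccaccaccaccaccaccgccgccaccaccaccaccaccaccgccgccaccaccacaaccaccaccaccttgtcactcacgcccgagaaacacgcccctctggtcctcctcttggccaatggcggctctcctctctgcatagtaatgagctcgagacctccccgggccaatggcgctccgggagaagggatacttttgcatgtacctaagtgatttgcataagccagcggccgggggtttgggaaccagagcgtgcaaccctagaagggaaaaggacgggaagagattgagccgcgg
RNF43 (chr17:58417485-58417784, minus strand): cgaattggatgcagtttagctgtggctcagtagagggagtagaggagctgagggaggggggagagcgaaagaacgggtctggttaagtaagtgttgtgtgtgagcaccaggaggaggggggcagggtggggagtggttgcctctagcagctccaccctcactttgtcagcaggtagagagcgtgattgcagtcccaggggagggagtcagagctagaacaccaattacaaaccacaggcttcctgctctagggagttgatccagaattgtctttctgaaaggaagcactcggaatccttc
DKK1 (chr10:52314031-52314330, plus strand): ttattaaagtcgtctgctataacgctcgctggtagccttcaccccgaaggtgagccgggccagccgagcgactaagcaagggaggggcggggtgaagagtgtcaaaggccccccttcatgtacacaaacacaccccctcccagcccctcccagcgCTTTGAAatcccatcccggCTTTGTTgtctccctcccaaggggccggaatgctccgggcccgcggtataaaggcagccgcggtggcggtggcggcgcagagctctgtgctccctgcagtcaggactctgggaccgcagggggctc
The *DKK1* window held 2 TCF/LEF words, CTTTGAA starting 95 bases and CTTTGTT starting 76 bases before the start, both on the plus strand, and no GGCGCC. Neither word was found in the windows of *LGR4* and *RNF43*. Among all 35116 RefSeq windows of this length, 13.8% held at least 1 of the TCF/LEF words and 19.2% held GGCGCC. RefSeq windows were at hand for 6 of the 10 genes, 8 windows in all, and not for *AXIN2*, *ZNRF3*, *NKD1* and *LGR5*. Of the other windows, 1 of 2 for *TCF7* held GGCGCC and the other CTTTGTT on the minus strand, while those of *NKD2*, *LEF1* and the second of *RNF43* held neither. A match is a run of letters, and binding was not measured here.

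With BMP-on, *LGR4* and *RNF43*, which act on opposite sides of Frizzled turnover, fell in KO cells, while *DKK1*, *NKD1* and *TCF7* rose. Among the 8 tested genes, 5 changed in the BMP response of KO cells, against 22.0% of all tested genes, with 3 higher (11.1% of all) and 2 lower (10.9% of all). In WT cells 2 of 8 changed, *NKD1* higher and *LGR4* lower, against 3.92% of all genes (1.91% higher, 2.01% lower). The median log2 fold change of the 8 genes was 0.096 in KO cells and 0.086 in WT cells, against 0.0056 and 0.0016 over all tested genes. None of the 8 changed by 1 or more on the log2 scale in either response, which 1.66% of all genes did in KO and 0.425% in WT cells. The BMP-on and BMP-off libraries did not overlap for 5 of 8 genes in KO cells (35.8% of all genes) and for 4 of 8 in WT cells (23.9% of all genes). In KO cells, 2 of the 8 genes changed without KO BMP-off replicate 1 or KO BMP-on replicate 2, 3 without KO BMP-off replicate 2 or KO BMP-on replicate 1, and 5 without KO BMP-off replicate 3.

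**Figure D2:**
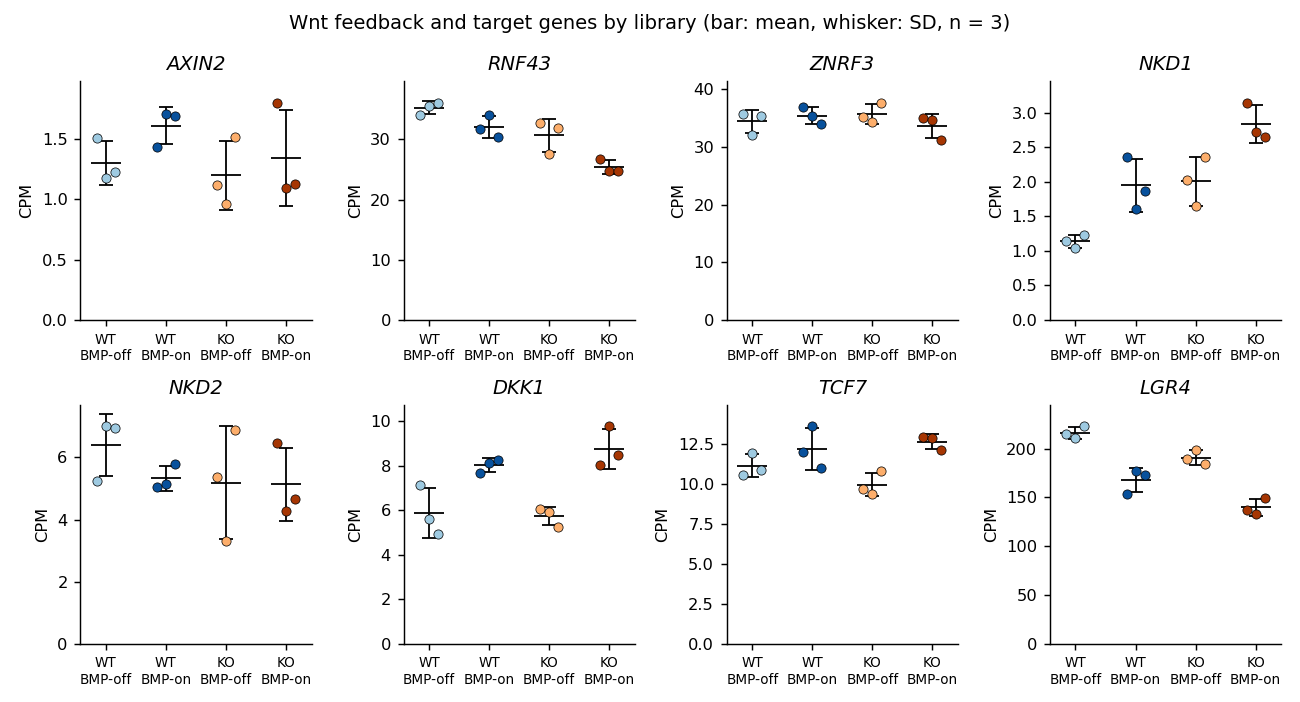
Level in CPM (axes start at 0) of the 8 tested genes in each library, by group, with points for libraries, a bar for the mean and whiskers for the SD (n = 3). *LGR4* steps down from 216 CPM in WT BMP-off to 140 CPM in KO BMP-on, *NKD1* steps up from 1.14 to 2.83 CPM, and the groups of *ZNRF3* and *AXIN2* overlap.

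*LGR4* (ENSG00000205213, chr11:27365961-27472790, minus strand) encodes a receptor for R-spondins. It measured 215, 211 and 223 CPM in WT BMP-off, 154, 177 and 173 CPM in WT BMP-on, 189, 199 and 184 CPM in KO BMP-off and 138, 133 and 150 CPM in KO BMP-on libraries. Every BMP-on library lay below every BMP-off library of the same genotype, and every KO library below every WT library of the same BMP state. The log2 fold change with BMP-on was -0.36 in WT cells (SE 0.058, 0.777-fold, edgeR adjusted p = 0.00129) and -0.45 in KO cells (SE 0.058, 0.734-fold, edgeR adjusted p = 4.46e-05), and both calls held in all 14 other settings and with each of the 12 libraries left out. These were the smallest adjusted p values of the 8 genes in both responses. The difference between both responses was -0.083 (95% interval -0.26 to 0.091, edgeR adjusted p = 0.711).

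*RNF43* (ENSG00000108375, chr17:58353676-58417595, minus strand) encodes a ubiquitin ligase of the cell surface that removes Frizzled. Its libraries held 34.1, 35.6 and 36.1 CPM in WT BMP-off, 31.7, 34.1 and 30.5 CPM in WT BMP-on, 32.7, 27.6 and 31.8 CPM in KO BMP-off and 26.8, 24.8 and 24.7 CPM in KO BMP-on. The KO BMP-on libraries were the 3 lowest of all 12. *RNF43* fell in KO cells with BMP-on (log2 fold change -0.27, SE 0.073, 0.829-fold, edgeR adjusted p = 0.0144). In WT cells the log2 fold change was -0.14 (95% interval -0.29 to 0.015, edgeR adjusted p = 0.398), and the difference between responses was -0.14 (95% interval -0.35 to 0.080). The KO call ended without KO BMP-off replicate 1 (-0.23, edgeR adjusted p = 0.0662) or KO BMP-on replicate 2 (-0.26, edgeR adjusted p = 0.0509), and with only the groups compared (-0.27, edgeR adjusted p = 0.0535).

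*ZNRF3* (ENSG00000183579, chr22:28883572-29057488, plus strand), the homolog of *RNF43* with the same role, ranged from 31.3 to 37.7 CPM over all 12 libraries, and its 4 groups overlapped. Group means were 34.5 ± 2.02, 35.4 ± 1.46, 35.8 ± 1.75 and 33.7 ± 2.11 CPM (SD, n = 3) in WT BMP-off, WT BMP-on, KO BMP-off and KO BMP-on. The log2 fold change with BMP-on was 0.037 in WT cells (95% interval -0.10 to 0.18) and -0.086 in KO cells (95% interval -0.23 to 0.056, edgeR adjusted p = 0.387). The intervals thus leave room for changes of up to 0.23 on the log2 scale.

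*DKK1* (ENSG00000107984, chr10:52314281-52318042, plus strand) encodes a secreted inhibitor of the Wnt co-receptors LRP5 and LRP6. It measured 7.12, 5.61 and 4.91 CPM in WT BMP-off, 7.68, 8.14 and 8.26 CPM in WT BMP-on, 6.04, 5.90 and 5.26 CPM in KO BMP-off and 8.05, 9.77 and 8.47 CPM in KO BMP-on libraries. All 6 BMP-on libraries exceeded all 6 BMP-off libraries. The rise was 0.60 on the log2 scale in KO cells (SE 0.13, 1.52-fold, edgeR adjusted p = 0.00276), and this call held in all 14 other settings and with any 1 library left out. In WT cells the log2 fold change was 0.44 (95% interval 0.17 to 0.71) and missed the threshold with an edgeR adjusted p of 0.0639. The WT value passed it without WT BMP-off replicate 1, the highest of its group (0.62, edgeR adjusted p = 0.0104), without KO BMP-off replicate 2 (0.44, edgeR adjusted p = 0.0369), after a correction for GC content (0.46, edgeR adjusted p = 0.00930) and with DESeq2 (adjusted p = 0.0460). The responses of WT and KO cells differed by 0.16 (95% interval -0.22 to 0.54, edgeR adjusted p = 0.741).

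The NKD genes encode a pair of intracellular inhibitors that bind Dishevelled. *NKD1* (ENSG00000140807, chr16:50548396-50649249, plus strand) was low, with 1.15, 1.04 and 1.23 CPM in WT BMP-off, 2.36, 1.61 and 1.87 CPM in WT BMP-on, 2.02, 1.65 and 2.36 CPM in KO BMP-off and 3.14, 2.72 and 2.64 CPM in KO BMP-on libraries. The WT BMP-off libraries were the 3 lowest and the KO BMP-on libraries the 3 highest of the 12, and the other two groups lay between them and overlapped each other. *NKD1* rose with BMP-on in WT cells (log2 fold change 0.76, SE 0.20, edgeR adjusted p = 0.0459) and in KO cells (0.50, SE 0.17, 1.42-fold, edgeR adjusted p = 0.0461). Both values lie close to the threshold. With each library left out in turn, 3 of 12 fits kept the WT call, those without WT BMP-on replicate 2 or KO BMP-off replicates 2 or 3 (0.60 to 0.88, edgeR adjusted p = 0.0239 to 0.207 over all 12), and 3 kept the KO call, those without WT BMP-on replicates 1 or 2 or KO BMP-off replicate 3 (0.38 to 0.61 over all 12, edgeR adjusted p up to 0.190). Both calls also ended with DESeq2 (adjusted p = 0.0593 in WT and 0.0947 in KO cells), with limma-voom (adjusted p = 0.0714 and 0.0862) and with RPKM values, and the KO call ended without a filter on low counts (edgeR adjusted p = 0.0616) or with only the groups compared (edgeR adjusted p = 0.0760). At 0.0633 to 0.188 RPKM, the constant added before the logarithm shrinks the changes of *NKD1*. With log2(RPKM + 1) they were 0.063 in WT and 0.059 in KO cells, so the RPKM fits cannot decide on these calls.

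*NKD2* (ENSG00000145506, chr5:1008802-1038943, plus strand) spread more within groups than between them. It measured 5.246, 6.999 and 6.958 CPM in WT BMP-off, 5.06, 5.13 and 5.78 CPM in WT BMP-on, 5.37, 3.29 and 6.90 CPM in KO BMP-off and 6.48, 4.28 and 4.66 CPM in KO BMP-on libraries. The lowest and one of the highest values thus both belong to KO BMP-off, in replicates 2 and 3, the libraries with the most extreme trends on GC content, and the *NKD2* transcript has 67.7% GC, the highest of the 10 genes. The log2 fold change with BMP-on was -0.26 in WT cells (95% interval -0.74 to 0.23, edgeR adjusted p = 0.655) and 0.0019 in KO cells (95% interval -0.50 to 0.51, edgeR adjusted p = 0.997). After a correction for GC content it was -0.42 in WT cells (edgeR adjusted p = 0.0166) and -0.47 in KO cells (edgeR adjusted p = 0.00457), so that the call of *NKD2* depended on this correction.

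*AXIN2* (ENSG00000168646, chr17:65528563-65561648, minus strand), the scaffold of the β-catenin destruction complex, had between 0.964 and 1.80 CPM, with group means of 1.30 ± 0.180, 1.61 ± 0.153, 1.20 ± 0.284 and 1.34 ± 0.398 CPM (SD, n = 3) in WT BMP-off, WT BMP-on, KO BMP-off and KO BMP-on. Its groups overlapped in every comparison. The log2 fold change with BMP-on was 0.30 in WT cells (95% interval -0.17 to 0.77, edgeR adjusted p = 0.582) and 0.19 in KO cells (95% interval -0.31 to 0.69, edgeR adjusted p = 0.607). A change within these intervals cannot be told from none here. A protein-coding gene without a name (ENSG00000266076) overlaps *AXIN2* on the same strand and had 0 counts in the WT BMP-off libraries. How counting treated reads shared by overlapping genes is not stated, so the level of *AXIN2* may depend on it.

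*TCF7* (ENSG00000081059, chr5:134114681-134151865, plus strand) encodes TCF1, a transcription factor that binds β-catenin. It measured 10.56, 11.96 and 10.91 CPM in WT BMP-off, 12.02, 13.62 and 11.03 CPM in WT BMP-on, 9.70, 9.40 and 10.81 CPM in KO BMP-off and 12.95, 12.90 and 12.16 CPM in KO BMP-on libraries. The groups overlapped in WT cells and separated in KO cells. There *TCF7* rose by 0.35 on the log2 scale (SE 0.096, 1.27-fold, edgeR adjusted p = 0.0169), against 0.14 in WT cells (95% interval -0.065 to 0.34, edgeR adjusted p = 0.558), and the difference between both was 0.21 (95% interval -0.075 to 0.50). The KO call ended without KO BMP-off replicate 1 (0.32, edgeR adjusted p = 0.0654) or 2 (0.30, edgeR adjusted p = 0.0502), and equally when KO BMP-on replicate 1 (0.32, edgeR adjusted p = 0.0663) or 2 (0.33, edgeR adjusted p = 0.0527) was left out. It also ended with limma-voom (0.26, adjusted p = 0.0557) and with unfiltered log2(RPKM + 1) values (0.23, limma adjusted p = 0.0685). The 3′ end of *TCF7* overlaps *SKP1* on the opposite strand, which had 2453 to 3922 counts per library, and whether counting used the strand is not stated.

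**Figure D3:**
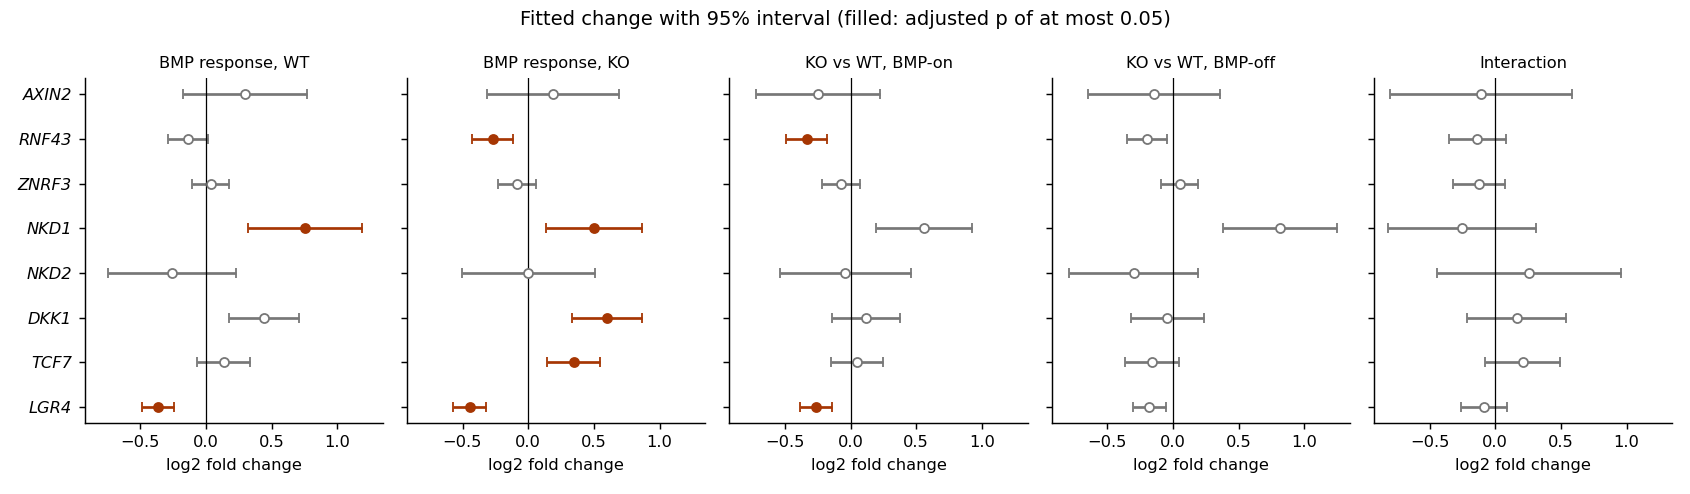
Log2 fold change (x axis) with its 95% interval for the 8 tested genes in the 5 comparisons, filled where the adjusted p was at most 0.05. Filled points lie in the BMP responses of WT (2) and KO cells (5) and in KO against WT with BMP-on (2), and every interval of the interaction includes 0.

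The comparison of MIB1 KO with WT cells, which shares its BMP-on and BMP-off libraries with the BMP responses, showed lower *RNF43* and *LGR4* in KO cells with BMP-on. These were 2 of the 8 tested genes, against 3.67% of all tested genes, and both were lower (2.34% of all, with 1.32% higher). *RNF43* was 25.4 ± 1.19 CPM in KO and 32.1 ± 1.84 CPM in WT cells (SD, n = 3), a log2 fold change of -0.33 (SE 0.073, 0.793-fold, edgeR adjusted p = 0.0141). *LGR4* was 140 ± 8.84 CPM in KO and 168 ± 12.5 CPM in WT cells (SD, n = 3), a log2 fold change of -0.26 (SE 0.058, 0.834-fold, edgeR adjusted p = 0.0166). *NKD1* was higher in KO cells by value (0.56, 95% interval 0.19 to 0.92) but missed the threshold with an edgeR adjusted p of 0.0988, which it passed with only the groups compared (0.0475) and after GC correction, alone (0.0413) or with a replicate block (0.0463). The 3 genes were also those whose groups did not overlap (23.6% of all genes). The median of the 8 log2 fold changes was -0.056, against 0.0025 over all genes, and none of the 8 reached a log2 fold change of 1 in size, which 0.14% of all genes did among those that changed.

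The *RNF43* call ended without WT BMP-on replicate 2 (-0.29, edgeR adjusted p = 0.0813), KO BMP-on replicate 2 (-0.32, edgeR adjusted p = 0.0659) or KO BMP-on replicate 3 (-0.31, edgeR adjusted p = 0.0654). The *LGR4* call ended without WT BMP-on replicate 2 (-0.22, edgeR adjusted p = 0.115) or 3 (-0.25, edgeR adjusted p = 0.0954), and equally when KO BMP-on replicate 1 (-0.25, edgeR adjusted p = 0.0854) or 2 (-0.23, edgeR adjusted p = 0.0948) was left out. With RPKM values the *LGR4* call ended in all 3 settings (limma adjusted p = 0.0615 to 0.1103) and the *RNF43* call in the unfiltered one (limma adjusted p = 0.0566). The direction of both genes held in each of these fits.

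With BMP-off, 0 of the 8 genes changed by edgeR between KO and WT cells, against 0.0407% of all tested genes (0.00582% higher, 0.0349% lower, and 0.0116% past 1 on the log2 scale as well), and DESeq2 and limma-voom also called 0. *RNF43*, *NKD1* and *LGR4* again had groups that did not overlap (11.7% of all genes). *NKD1* was 2.01 ± 0.355 CPM in KO and 1.14 ± 0.0926 CPM in WT cells (SD, n = 3), a log2 fold change of 0.81 (95% interval 0.38 to 1.25, edgeR adjusted p = 0.272). The log2 fold change was -0.20 for *RNF43* (95% interval -0.35 to -0.047, edgeR adjusted p = 0.397) and -0.18 for *LGR4* (95% interval -0.30 to -0.056, edgeR adjusted p = 0.366). For *DKK1* it was -0.044 (95% interval -0.32 to 0.23), for *TCF7* -0.16 (95% interval -0.37 to 0.044), for *ZNRF3* 0.051 (95% interval -0.091 to 0.19), for *NKD2* -0.30 (95% interval -0.79 to 0.19) and for *AXIN2* -0.14 (95% interval -0.64 to 0.36).

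The BMP responses of WT and KO cells differed for 0 of the 8 genes in the interaction test by edgeR, against 0.0931% of all tested genes (0.0407% higher, 0.0524% lower), and for 0 by DESeq2 and limma-voom. The more numerous calls in KO than in WT cells are therefore not shown to be a difference in response. The widest intervals were those of *NKD2* (0.26, -0.44 to 0.96), *AXIN2* (-0.11, -0.80 to 0.58) and *NKD1* (-0.25, -0.82 to 0.31), and the narrowest was that of *LGR4*.

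The rest of the pathway was examined through 92 further genes in 6 lists, of which 66 were tested. In KO cells with BMP-on, 15 of the 66 rose and 8 fell, beside 11.1% and 10.9% of all tested genes, and their median log2 fold change was 0.13, beside 0.0056 over all. In WT cells 5 rose and 1 fell, beside 1.91% and 2.01% of all tested genes, with a median of 0.026 beside 0.0016. Names beyond the 3 largest changes in each direction were added after their values were seen. Their calls were not examined gene by gene under the alternatives.

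Among Wnt ligands, R-spondins and their secretion factors, 13 of 25 were tested, and 3 rose and 3 fell in KO cells, beside 11.1% and 10.9% of all tested genes. *WNT7B*, a ligand of lung epithelium, rose from 3.13 ± 0.466 to 8.78 ± 0.799 CPM (SD, n = 3) in KO cells (2.82-fold, edgeR adjusted p = 5.90e-07) and from 3.75 ± 0.359 to 5.79 ± 0.474 CPM in WT cells (1.55-fold, edgeR adjusted p = 0.00872). On the log2 scale, its responses differed by 0.87 (SE 0.18), with an edgeR adjusted p of 0.0722. *WNT5A*, a ligand known for signaling without β-catenin, fell in WT cells (-0.22, SE 0.049, edgeR adjusted p = 0.0160) and in KO cells (-0.38, SE 0.050, edgeR adjusted p = 4.28e-05). The WT call of *WNT5A* ended without WT BMP-off replicates 1 or 3 or any 1 WT BMP-on library (-0.23 to -0.20, edgeR adjusted p = 0.0696 to 0.105), and that of *WNT7B* ended without WT BMP-off replicate 2 (0.57, edgeR adjusted p = 0.0552) and with RPKM values. *RSPO3*, an R-spondin and so a ligand of LGR4, fell in KO cells from 15.6 ± 1.49 to 11.7 ± 0.350 CPM (SD, n = 3; -0.41, SE 0.092, edgeR adjusted p = 0.00424), as did *WNT2B* (-0.47, SE 0.12, edgeR adjusted p = 0.0105). The *WNT2B* call ended in each RPKM setting (limma adjusted p = 0.0626 to 0.0824).

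Among 14 tested receptors and co-receptors, *FZD1* and *FZD7* rose in WT and KO cells, and *FZD5*, *FZD6* and *RYK* fell in KO cells. Of all tested genes, 3.92% changed in WT and 22.0% in KO cells. *FZD1*, a Frizzled receptor, went from 12.7 ± 1.13 to 27.6 ± 2.42 CPM (SD, n = 3) in KO cells (log2 fold change 1.12, SE 0.10, edgeR adjusted p = 1.18e-06) and from 10.6 ± 0.925 to 17.2 ± 2.24 CPM in WT cells (0.70, SE 0.11, edgeR adjusted p = 0.000992). Of 14 extracellular inhibitors 4 were tested, and *NOTUM*, which removes the lipid of Wnt ligands, rose in KO cells. Of 14 cytoplasmic components, *APC2*, *DVL1* and *DVL3* rose in KO cells, and of 11 nuclear components, *TLE2* and *CTNNBIP1* rose and *PYGO1* fell there, beside 22.0% of all tested genes changed. In KO BMP-off libraries *APC2* had only 9 to 19 counts, and *DVL1* ranged from 19.1 to 39.8 CPM. In the WT response, 0 of the tested extracellular inhibitors, cytoplasmic and nuclear components changed, beside 3.92% of all tested genes. Lists this short can hold 0 calls at that share, so this does not set them apart. Transcript GC content was 69.2% for *APC2*, 67.5% for *DVL1*, 65.7% for *NOTUM*, 64.7% for *TLE2*, 57.2% for *CTNNBIP1* and 56.4% for *DVL3*. The receptors that rose had 56.4% (*FZD7*) and 47.6% (*FZD1*). For the genes that fell it was 51.3% (*FZD5*), 37.7% (*FZD6*), 36.8% (*RYK*) and 36.4% (*PYGO1*). The part of GC content in these calls was not tested.

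Among 10 tested of 12 other Wnt target genes, *MYC*, *CCND1*, *SOX9* and *JUN* rose and *CD44* fell in KO cells (22.0% of all tested genes changed), and *SOX9* and *CCND1* rose in WT cells (3.92% of all). These Wnt target genes are targets of many other pathways too. *SOX9*, a transcription factor of lung progenitors, rose from 7.37 ± 0.320 to 14.2 ± 0.0957 CPM (SD, n = 3) in WT cells (log2 fold change 0.94, SE 0.078, edgeR adjusted p = 1.89e-06) and from 8.65 ± 0.373 to 19.4 ± 0.526 CPM in KO cells (1.17, SE 0.075, edgeR adjusted p = 3.29e-08). In both WT and KO cells, the log2 fold change of *SOX9* was above that of each of the 8 tested Wnt feedback and target genes described above, a difference that was not tested.

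**Figure D4:**
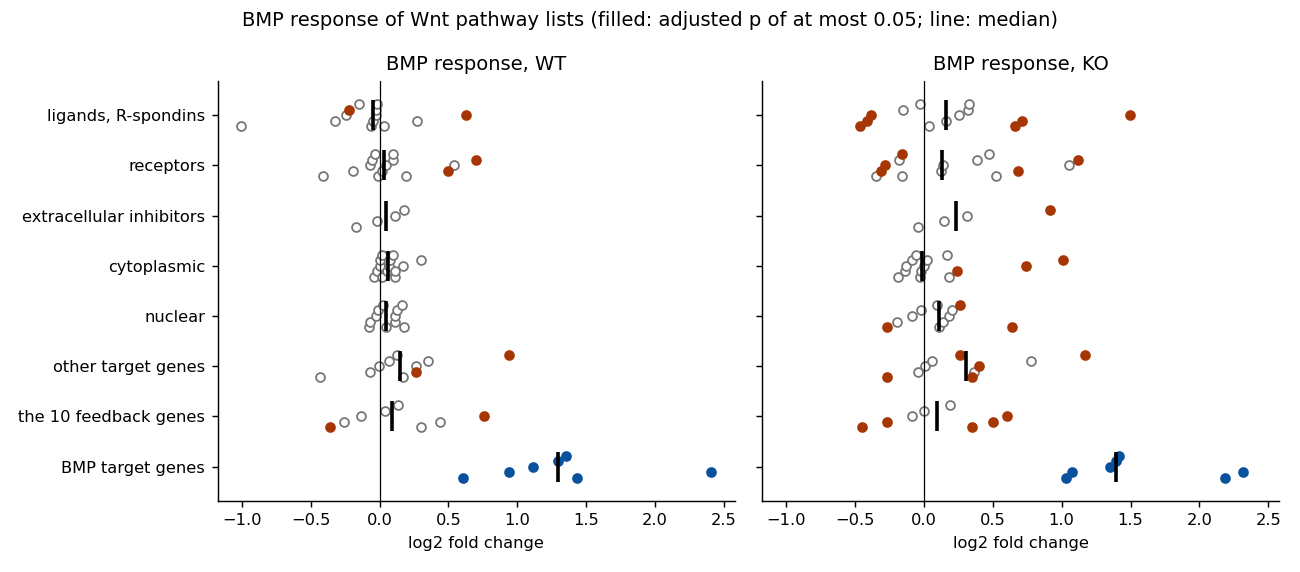
Log2 fold change with BMP-on (x axis) of each tested gene of the 6 Wnt pathway lists, of the 8 tested Wnt feedback and target genes and of 7 BMP target genes, in WT (left) and KO cells (right), filled where the adjusted p was at most 0.05, with a line at the list's median. In KO cells all 6 Wnt lists have filled points, and the 7 BMP target genes are filled and above 0 in both panels.

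Between KO and WT cells that both had BMP-on, 7 of the 66 genes were higher and 2 lower, beside 1.32% and 2.34% of all tested genes, with a median log2 fold change of 0.020. *FZD1* (0.68, SE 0.10, edgeR adjusted p = 0.00104), *WNT7B* (0.61, SE 0.12, edgeR adjusted p = 0.00604) and *SOX9* (0.46, SE 0.072, edgeR adjusted p = 0.00139) were higher, and *RSPO3* (-0.40, SE 0.092, edgeR adjusted p = 0.0182) and *WNT5A* (-0.22, SE 0.050, edgeR adjusted p = 0.0183) were lower. The *WNT7B* call ended with log2(RPKM + 0.1) values and with unfiltered log2(RPKM + 1) values (limma adjusted p = 0.0575 and 0.0692). The *RSPO3* and *WNT5A* calls each held in 11 of 14 other settings, ending with RPKM values, and in 7 of 12 fits with a library left out. The *RSPO3* call ended without WT BMP-on replicates 2 or 3 or any 1 KO BMP-on library (-0.43 to -0.35, edgeR adjusted p = 0.0554 to 0.115), and that of *WNT5A* without any 1 WT BMP-on library or KO BMP-on replicates 1 or 2 (-0.24 to -0.21, edgeR adjusted p = 0.0627 to 0.1103). With BMP-off, 0 of the 66 genes changed by edgeR (0.0407% of all tested genes), DESeq2 or limma-voom. In the interaction, 0 changed by edgeR (0.0931% of all tested genes) and 1 by DESeq2.

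The genes whose levels followed those of *LGR4*, *RNF43* and *DKK1* most closely were sought among 12836 tested genes with at least 50 counts on average, by Pearson's r of log2 CPM over the 12 libraries. These values are descriptions, since libraries share depth, base composition and the 4 groups. *ALCAM* (r = 0.987), *PDGFC* (0.984) and *EMP2* (0.978) were most like *LGR4*, and *HOXC13* (-0.986), *PLEK2* (-0.978) and *SHB* (-0.976) most opposite. For *ALCAM*, the r of the deviations from the group means was 0.917. These deviations are part of the r by which *ALCAM* was picked, so this value is not separate evidence. *CDC20* (0.970), *NID2* (0.965) and *RNASEH2A* (0.960) were most like *RNF43*, and *PNMA8A* (-0.949) and *ZNF404* (-0.949) were among the most opposite. *C6orf89* (0.956), *DACT1* (0.930) and *MFHAS1* (0.927) were most like *DKK1*, and *ANKRD27* (-0.967), *SLC30A4* (-0.942) and *TPD52L1* (-0.934) most opposite. *DACT1* encodes another Dishevelled-binding regulator of Wnt signaling. No other gene of the 10 was in these sets, but *NKD1*, *AXIN2*, *LGR5* and *LEF1* had too few counts to be searched. Each set holds only the most extreme of 12836 genes, so nothing follows from this absence.

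**Figure D5:**
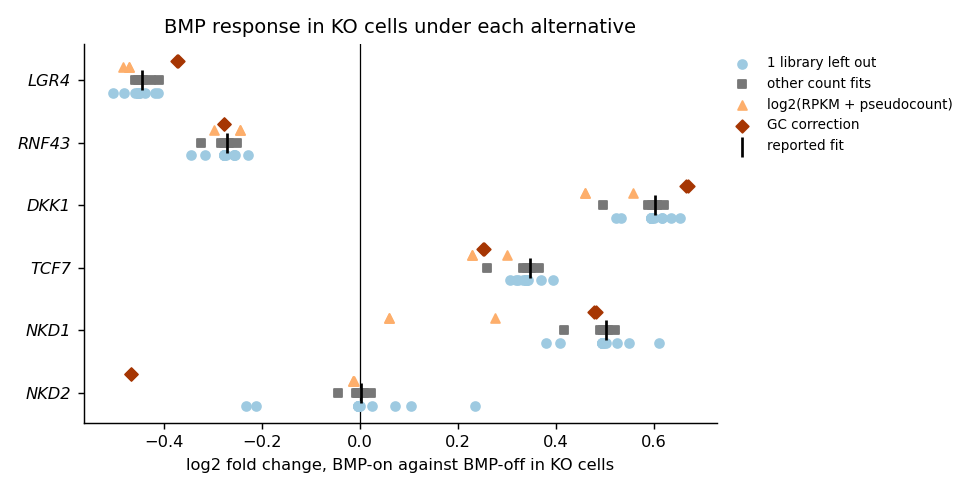
Log2 fold change with BMP-on in KO cells (x axis) of 6 of the genes under each alternative, with a tick for the reported value and symbols for each left-out library, other count fits, RPKM values and GC correction. The values of *LGR4* and *RNF43* stay below 0 and those of *DKK1*, *TCF7* and *NKD1* above 0, whereas *NKD2* lies on both sides, at -0.47 after GC correction.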

How the data were processed

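The 10 genes, the other lists and the tests were chosen with earlier results of these data known. Per the labels and methods, reads without ribosomal matches were mapped to GRCh38 (GSNAP), and the authors deposited raw counts. The methods describe counting over the exons of RefSeq genes, but the deposited counts carry Ensembl identifiers. The authors also deposited normalized RPKM values, used for levels per length and for alternatives. Strand use in counting is not given in the sources used here. The groups came from the labels, and 0 columns were left out. Symbols came from GENCODE v44 for 57532 of 58302 identifiers.

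Counts were tested with edgeR 4.0.16 in R 4.3.3 (TMM scaling, default filter on low counts, robust quasi-likelihood fit over 12 libraries, 5 comparisons). Adjusted p values are Benjamini-Hochberg values within a comparison. The procedure was tested on simulated counts, which did not hold the GC trends of these libraries.

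Named genes are all 10 members, from the other Wnt lists up to 3 higher and 3 lower per comparison among changed genes with a mean of at least 50 counts, and the genes most like and most opposite to 3 members, of which 1 is not reported here. Alternatives used DESeq2 1.42.0, limma 3.58.1 (limma-voom after quantile normalization, as the authors did), 3 other scalings, 2 other filters, only the groups compared, a replicate block, GC correction by a loess trend (span 0.4), the latter with the block, log2(RPKM + 1) and log2(RPKM + 0.1) values, the former also unfiltered, an added fold change threshold of 1 on the log2 scale, and each library left out.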

Additional observations from a re-analysis of the deposited data

How the results depend on the processing

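The 2 calls among the 8 genes in the WT response, of which DESeq2 exchanged *NKD1* for *DKK1*, became 1 with limma-voom and with each RPKM setting, 4 with GC correction, alone or with a replicate block, and 0 with the fold change threshold, and ranged from 1 to 3 with a library left out. *DKK1* was added to them without a filter on low counts. The 5 in KO cells became 3 with limma-voom, with only the groups compared and with unfiltered log2(RPKM + 1) values, 0 with the fold change threshold, and 2 to 5 with a library left out. Of these 5, only *NKD1* was lost with DESeq2, without a filter on low counts and with filtered log2(RPKM + 1) or log2(RPKM + 0.1) values. GC correction, alone or with a replicate block, kept all 5 and added *NKD2* as lower. The 2 in KO against WT with BMP-on became 3 with only the groups compared and with GC correction, alone or with a replicate block, 1 with log2(RPKM + 1) or log2(RPKM + 0.1), 0 with unfiltered RPKM or the fold change threshold, and 0 to 2 with a library left out. With BMP-off the 0 became 1 without a filter on low counts (*NKD1*, 0.81, edgeR adjusted p = 0.0413) and 1 with GC correction and replicate block (*LGR4*, -0.21, edgeR adjusted p = 0.0485), and was 0 with any library left out. The interaction count was 0 in all settings. The causes were not tested.

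Of 18 same-numbered pairs of libraries, 2 had a correlation of deviations above 0.1 (range -0.187 to 0.189). Pairs with different numbers were not compared, so these values cannot decide whether replicate numbers pair libraries. A fit with a replicate block gave 2, 5, 2, 0 and 0 calls in the 5 comparisons and changed no call of the 8 genes. Among the 66 other Wnt genes, the 23 calls of the KO response became 10 with unfiltered log2(RPKM + 1) values and 4 with the fold change threshold, the 9 calls of KO against WT with BMP-on became 5, 4 and 3 with the RPKM settings and 1 with the fold change threshold, and the 6 of the WT response became 0 with it. With a library left out, the KO count fell to 13 without KO BMP-on replicate 1 and 15 without KO BMP-off replicate 1, and that of KO against WT with BMP-on to 4 without WT BMP-on replicates 2 or 3 or KO BMP-on replicate 2. With BMP-off, 2 were called without a filter and 1 after GC correction, and in the interaction 2 without a filter and 1 with DESeq2.

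*NKD2* in KO cells turned from 0.0019 to -0.0051 with DESeq2, -0.0462 with limma-voom, -0.0085 with upper-quartile scaling, -0.00387 without a filter, -0.016 with log2(RPKM + 1), filtered or not, -0.012 with log2(RPKM + 0.1) and -0.47 with GC correction, alone (edgeR adjusted p = 0.00457) or with the block (edgeR adjusted p = 0.00668), and ranged from -0.23 to 0.23 with a library left out. Its interaction turned to -0.044 with GC correction, alone or with the block. With a library left out, the sign also changed for *ZNRF3* in the WT response (-0.010 to 0.072), *AXIN2* in the KO response (-0.10 to 0.37), KO against WT with BMP-off (-0.32 to 0.00019) and the interaction (-0.40 to 0.070), *DKK1* in KO against WT with BMP-off (-0.15 to 0.14) and the interaction (-0.022 to 0.27), and *NKD2* (-0.25 to 0.060) and *TCF7* (-0.025 to 0.14) in KO against WT with BMP-on. None of these was called in the reported fit. Over all settings and the 8 genes, 946 values kept direction and side of the threshold, 50 lost a call, 13 gained one and 31 changed sign.

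*AXIN2* and *NKD1* had only 34.7 and 49.6 counts per library on average, and each group had 3 replicates. Transcript levels do not measure protein or Wnt signaling activity.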
